A study of Mus musculus with 20 samples.

Results

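Arc, Homer1, Npas4, Nptx2, Vgf, Inhba and Pcsk1 are genes that neurons switch on when they are active, and most of their products act at the synapse or leave the cell. They were followed in the amygdala and the hippocampus of mice around conditioned fear (CF) learning. The members were the transcript clusters of the array, sets of probes read out as 1 value, whose annotation gives exactly 1 of these symbols. Each of the 7 genes had 1 such transcript cluster, among the 19938 genes that the array reports in this way.

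There were 20 arrays, of the type Affymetrix Mouse Gene 1.0 ST. DKO mice lack the adenylyl cyclases AC1 and AC8, the enzymes that make cAMP when Ca2+ rises in a neuron, and WT mice were C57BL/6. The lines behind the DKO mice were also kept on an inbred C57BL/6 background. All mice were males aged 2 mo. The groups of arrays were amygdala DKO, amygdala WT, hippocampus DKO and hippocampus WT, with 5 arrays in each, 1 per time point. Baseline mice were taken 5 min before training and had no shock, and the others had 1 shock of 0.7 mA for 2 sec in a trial of 5 min and were killed 0 hr, 1 hr or 48 hr later, or 1 wk later directly after a testing trial. RNA of 5 to 10 mice was pooled on each array. The DKO mice were bred on doxycycline, in a colony that also holds a CaMKII-tTA and a tetop-AC8 transgene, of which a DKO mouse had either or neither. WT mice were no littermates of theirs, so that knockout and breeding cannot be told apart. Values are RMA levels on a log2 scale, and a difference of 1 on this scale is a doubling.

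Activity in a neuron reaches its genes through Ca2+, cAMP and kinases that act on transcription factors such as CREB. Some of the genes that respond encode further transcription factors, and others, called effectors, encode proteins that change the synapse directly. Among the 7 genes here Npas4 is a transcription factor, Arc and Homer1 work inside the postsynaptic spine, and Nptx2, Vgf and Inhba encode secreted proteins. Pcsk1 encodes an enzyme that cuts secreted precursors inside granules. CREB binds the cAMP response element (CRE), TGACGTCA, and also its shorter core TGACG.

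Because DKO mice lack cAMP-producing enzymes, the promoters of the members were searched for these letters on both strands. RefSeq promoter windows (build GRCm38.p6, 250 bases before to 50 after a transcription start) matched 4 of the 7 genes with 5 starts, Homer1 having several starts, and the Arc, Nptx2 and Vgf promoters were not analysed here. The stretches that hold the core are shown 5′ to 3′ on the strand of the gene, with the core TGACG, or CGTCA where it lies on the other strand, in capitals.
Homer1, chr13:93303689-93303756, plus strand: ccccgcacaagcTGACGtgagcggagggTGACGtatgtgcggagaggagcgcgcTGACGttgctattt
Pcsk1, chr13:75089767-75089823, plus strand: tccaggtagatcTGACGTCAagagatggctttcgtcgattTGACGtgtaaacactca
Npas4, chr19:4990124-4990162, minus strand: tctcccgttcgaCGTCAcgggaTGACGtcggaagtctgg
Among the 4 genes searched, Pcsk1 alone held a whole CRE, 78 bases before its start, in which the core is read on both strands and overlaps itself. A whole CRE was held by 1.79% of the 32851 promoter windows in the table and the core by 20.8%. The core stood at 3 positions in this Homer1 window and in that of Pcsk1, against 1.03% of all windows with 3 or more, and at 2 positions in that of Npas4, against 5.01% with 2 or more. The second Homer1 window and the Inhba window held no core. TATAAA was found once among the member windows, 91 bases before the start of Inhba, and in 13.6% of all windows. CACGTG and the CArG box were found in no member window and in 7.15% and 1.63% of all windows.

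Across the series the medians of the arrays lay between 6.64 and 6.83. The DKO arrays of 48 hr had the lowest medians, 6.68 for the amygdala one and 6.64 for the hippocampus one, but the amygdala WT array of 1 hr was also at 6.68. The amygdala DKO array of 48 hr stood out by its SD, 1.71, the smallest of all arrays. Adcy1 and Adcy8, the genes of AC1 and AC8, averaged 6.50 to 6.77 in amygdala DKO against 7.51 to 7.76 in amygdala WT and 6.49 to 6.74 in hippocampus DKO against 8.15 to 8.49 in hippocampus WT. The genotype labels were therefore borne out in both regions. Prox1, a marker of dentate granule cells, differed by -2.51 between amygdala and hippocampus, and no list of amygdala markers was used. The punches also differed in markers of neighbouring tissue. The mean level of 5 striatal genes ran from 8.40 to 8.60 in amygdala DKO and from 8.56 to 9.33 in amygdala WT. That of 6 thalamic genes ran from 8.07 to 8.63 in hippocampus DKO and from 7.58 to 8.19 in hippocampus WT. That of 6 choroid plexus genes (Clic6, Ecrg4, Folr1, Kcnj13, Kl and Ttr) ran from 7.50 to 9.46 over the 20 arrays and was high on all 4 baseline arrays, at 8.99 to 9.46.

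The clearest pattern in the members was between the regions. Pcsk1, Homer1, Vgf and Npas4 were higher in the amygdala and Inhba was higher in the hippocampus, so that 5 of 7 members passed an adjusted p of 0.05 in limma, against 16.3% of all 28853 transcript clusters (8.01% higher and 8.3% lower in the amygdala). This fit compared 10 amygdala with 10 hippocampus arrays, with genotype and time point as further terms. After training Arc was the member with the most even movement, and it lay above its baseline in all 4 groups at 0 hr, 1 hr and 1 wk. No member passed the test for a change in time or for a difference between DKO and WT. In bulk tissue, more cells of a type and more RNA per cell cannot be told apart, and this holds for every level below.

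**Figure D1:**
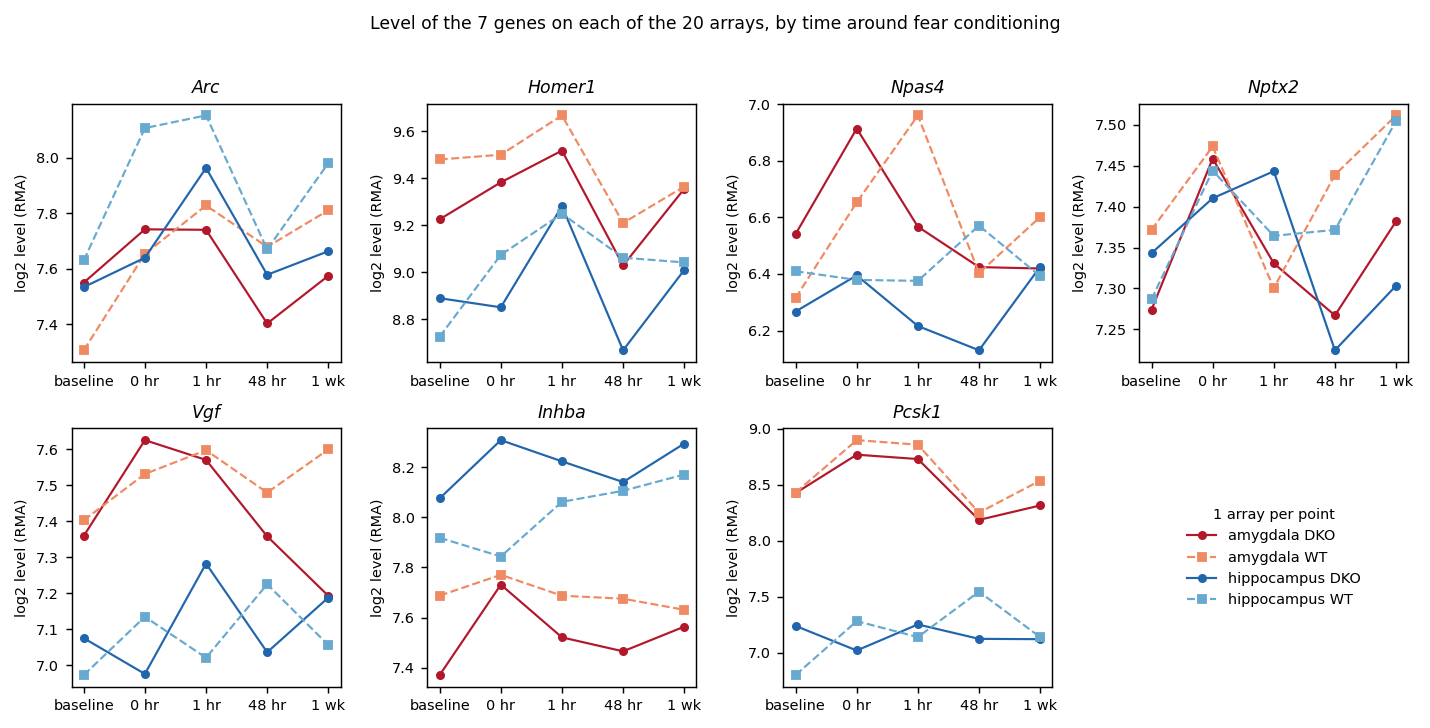
Log2 level (RMA) of each of the 7 genes on each of the 20 arrays, by time around CF learning, with 1 point per array and 1 line per group of region and genotype; the vertical axes differ between panels and do not start at 0. Pcsk1 separates the regions without overlap, as Inhba does in the other direction, while the Arc lines peak at 0 hr or 1 hr in each group.

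Pcsk1 (transcript cluster 10406229) encodes PC1/3, the convertase that cuts prohormones in neurons and endocrine cells. Pcsk1 in amygdala DKO was 8.43, 8.77, 8.73, 8.19 and 8.32 in the order baseline, 0 hr, 1 hr, 48 hr and 1 wk. Pcsk1 in amygdala WT was 8.43, 8.90, 8.86, 8.25 and 8.54 at the same times. Both genotypes were thus highest at 0 hr and lowest at 48 hr. Pcsk1 in hippocampus DKO was 7.24, 7.02, 7.25, 7.12 and 7.12, and stayed within a narrow range. Pcsk1 in hippocampus WT was 6.80, 7.28, 7.14, 7.54 and 7.14, with its lowest value at baseline. Every amygdala array lay above every hippocampus array, as did 1.81% of all transcript clusters. The mean was 8.54 ± 0.26 in the amygdala and 7.17 ± 0.19 in the hippocampus (SD, n = 10 each), a difference of 1.38 (SE 0.087), or 2.60-fold, with an adjusted p of 3.66e-10 in limma.

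Homer1 (10406626) is a scaffold of the postsynaptic density that ties metabotropic glutamate receptors to Shank proteins. Its transcript cluster is annotated with several isoforms, so the short activity-induced form could not be read apart from the long forms. Homer1 in amygdala DKO was 9.23, 9.38, 9.52, 9.03 and 9.35 in the order of time. Homer1 in amygdala WT was 9.48, 9.50, 9.67, 9.21 and 9.36. In both genotypes the amygdala was highest at 1 hr and lowest at 48 hr. Homer1 in hippocampus DKO was 8.89, 8.85, 9.28, 8.67 and 9.01. Homer1 in hippocampus WT was 8.73, 9.07, 9.25, 9.06 and 9.04. The hippocampus was also highest at 1 hr, so that 1 hr was the peak of Homer1 in all 4 groups. Ranges of the regions overlapped, but in 10 of 10 pairs of the same genotype and time the amygdala was higher, by 0.39 on average (SE 0.054, adjusted p = 1.69e-05 in limma). The share of all transcript clusters with 10 of 10 pairs in one direction was not counted.

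Vgf (10526553) encodes a precursor that neurons cut into several secreted peptides. Vgf in amygdala DKO was 7.36, 7.63, 7.57, 7.36 and 7.19, with its lowest value at 1 wk. Vgf in amygdala WT was 7.40, 7.53, 7.60, 7.48 and 7.60. Amygdala WT was lowest at baseline, and no later array went under it. Vgf in hippocampus DKO was 7.07, 6.98, 7.28, 7.04 and 7.19. Vgf in hippocampus WT was 6.97, 7.13, 7.02, 7.22 and 7.06. These hippocampus series moved in opposite directions from baseline to 0 hr, by -0.10 in DKO and by 0.16 in WT. Again the amygdala was higher in 10 of 10 pairs, a count without a share of all transcript clusters beside it, while the ranges overlapped. The difference was 0.38 (SE 0.057, adjusted p = 5.41e-05 in limma).

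Inhba (10403743) encodes the beta A subunit, which pairs with itself to form activin A, a secreted factor of the TGF-beta family. Inhba in amygdala DKO was 7.37, 7.73, 7.52, 7.47 and 7.56. Inhba in amygdala WT was 7.69, 7.77, 7.69, 7.68 and 7.63, the narrowest of its groups. The baseline DKO array was the lowest of the 20. Inhba in hippocampus DKO was 8.08, 8.31, 8.22, 8.14 and 8.29. Inhba in hippocampus WT was 7.92, 7.84, 8.06, 8.11 and 8.17. Every amygdala array lay below every hippocampus array, as did 1.99% of all transcript clusters. Inhba averaged 7.61 ± 0.13 in the amygdala and 8.11 ± 0.15 in the hippocampus (SD, n = 10 each), a difference of -0.50 (SE 0.063, adjusted p = 4.81e-06 in limma).

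Npas4 (10464905) is a transcription factor that pairs with Arnt or Arnt2 and turns on genes of inhibitory synapses. Npas4 in amygdala DKO was 6.54, 6.91, 6.57, 6.42 and 6.42, with a peak at 0 hr. Npas4 in amygdala WT was 6.32, 6.65, 6.96, 6.40 and 6.60, with a peak at 1 hr. The peaks of both genotypes reached a similar level at different times. Each peak is 1 array of a gene with a low signal. Npas4 averaged 6.47 over the 20 arrays, below the median level of all transcript clusters, 6.75, and 43.1% of them were lower. Npas4 in hippocampus DKO was 6.27, 6.39, 6.22, 6.13 and 6.43. Npas4 in hippocampus WT was 6.41, 6.38, 6.38, 6.57 and 6.39, and its 48 hr array stood apart from the other 4. The hippocampus had no array at the level of the amygdala peaks. The amygdala was higher in 7 of 10 pairs, by 0.22 (SE 0.071, adjusted p = 0.0355 in limma). This call was lost when any of 10 of the 20 arrays was left out in turn, the adjusted p without 1 array ranging from 0.00986 to 0.0841, and in WT arrays alone, where the difference was 0.16 with an adjusted p of 0.478.

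Arc (10429491) encodes a spine protein that binds endophilin and dynamin and draws AMPA receptors off the synapse. Arc in amygdala DKO was 7.55, 7.74, 7.74, 7.40 and 7.57. Arc in amygdala WT was 7.31, 7.65, 7.83, 7.68 and 7.81, and its baseline was the lowest of the 20 arrays. Amygdala DKO returned below its baseline at 48 hr and amygdala WT did not. Arc in hippocampus DKO was 7.53, 7.64, 7.96, 7.58 and 7.66. Arc in hippocampus WT was 7.63, 8.11, 8.15, 7.67 and 7.98, with the highest arrays of all groups at 0 hr and 1 hr. The amygdala was higher than the hippocampus in 3 of 10 pairs, and the difference of -0.16 (SE 0.057) missed the threshold, with an adjusted p of 0.0564 in limma. It passed in 2 of 9 alternatives, 1 of them median centring with an adjusted p of 0.0105, and missed in 7. Over these 9 the difference ran from -0.25 to -0.07, and the adjusted p in limma reached 0.410. With 1 array left out in turn the adjusted p was 0.0190 to 0.114.

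Nptx2 (10527332) encodes a secreted pentraxin that gathers AMPA receptors at excitatory synapses onto interneurons. Nptx2 in amygdala DKO was 7.27, 7.46, 7.33, 7.27 and 7.38. Nptx2 in amygdala WT was 7.37, 7.47, 7.30, 7.44 and 7.51. The series of all 4 groups crossed each other. Nptx2 in hippocampus DKO was 7.34, 7.41, 7.44, 7.22 and 7.30. Nptx2 in hippocampus WT was 7.29, 7.44, 7.36, 7.37 and 7.50. All 20 arrays lay between 7.22 and 7.51, and the regions differed by 0.01 (95% interval -0.08 to 0.10).

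**Figure D2:**
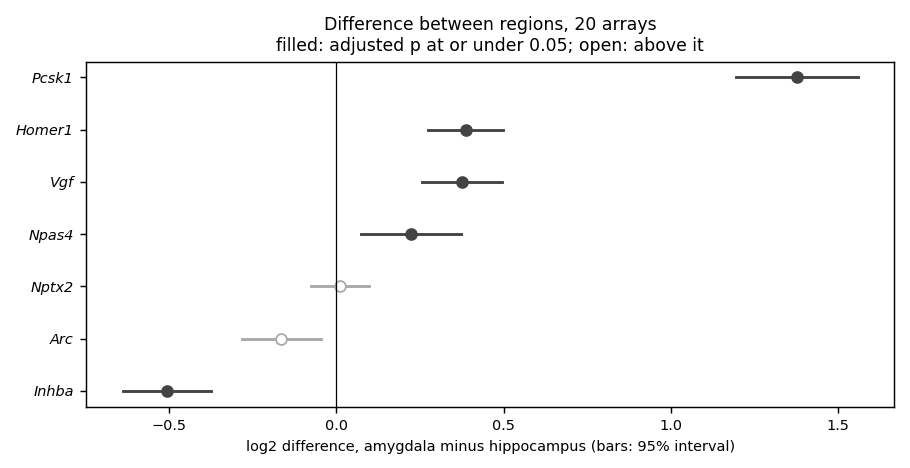
Log2 difference between the regions, amygdala minus hippocampus, for each of the 7 genes, with points for the estimate over 20 arrays and bars for its 95% interval. Pcsk1 lies at 1.38, Homer1 at 0.39, Vgf at 0.38 and Npas4 at 0.22, Inhba lies at -0.50, and the open points of Arc and Nptx2 mark the genes that missed an adjusted p of 0.05.

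Some partners of the members also differed between the regions, in both directions. For each count of partners below, the share of all transcript clusters that passed was 16.3% (8.01% higher and 8.3% lower in the amygdala). Among 9 measured genes of prohormone processing and granules other than the members, 4 were higher in the amygdala and 1 was lower. Chga was higher by 0.28, Scg2 by 0.27, Pcsk1n, whose product inhibits PC1/3, by 0.24 and Scg5 by 0.15, while Chgb was lower, at -0.42. The list's median difference was 0.02, the same as that of all transcript clusters, 0.02.

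Of 12 genes of the activin pathway, 4 were higher and 2 lower in the amygdala, with a median of 0.05. The type II receptor Acvr2a was higher by 0.55, Smad2, which carries the signal to the nucleus, by 0.29, the inhibin subunit Inha by 0.23 and the type I receptor Acvr1b by 0.21. The type I receptor Acvr1 was lower, at -0.67, and so was Smad4, at -0.20. Acvr1 thus shared the direction of Inhba, and Acvr2a and Acvr1b did not.

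Around the AMPA receptor all 5 measured partners differed. The amygdala was lower in Nptx1, the pentraxin that assembles with Nptx2, at -0.76, in Gria1 at -0.36 and in Gria2 at -0.29, and higher in Gria4 at 0.58 and Gria3 at 0.20. Nptx2 itself did not pass, as given above. Among the 6 measured Homer partners 1 passed, near the 16.3% of all transcript clusters. This was Homer2, which was lower in the amygdala, at -0.86 and -0.48 in its 2 transcript clusters, while Homer1 was higher. Of 6 partners of Arc in endocytosis 3 were higher in the amygdala, namely the dynamin Dnm3 by 0.57 and the endophilins Sh3gl2 by 0.35 and Sh3gl3 by 0.29. Of the partners of Npas4, Arnt2 was higher, at 0.45, and Arnt lower, at -0.18.

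Other activity-induced genes were called in both directions. Of 20 activity-induced transcription factors 5 passed, a share not far from the 16.3% of all transcript clusters, and 2 were higher in the amygdala, Egr2 by 0.65 and Fosb by 0.25, and 3 were lower, Jun at -0.48, Nfil3 at -0.26 and Bhlhe40 at -0.23. Of 19 other effectors, 5 were higher and 6 lower, against 8.01% and 8.3% of all transcript clusters. Rgs2, which damps G protein signalling, was higher by 0.70, the synaptotagmin Syt4 by 0.67, the sorting receptor Sorcs3 by 0.35, Scg2 by 0.27 and the matrix protein Ccn1 by 0.24. Ptgs2, the inducible cyclooxygenase, was lower, at -1.04, as were Nrn1 at -0.86, Adamts1 at -0.62, the neurotrophin Bdnf at -0.51, Tiparp at -0.30 and Btg2 at -0.23.

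Markers of tissue moved along with these differences. All 5 measured striatal genes were higher in the amygdala, Rgs9 by 1.34, Drd1 by 0.99, Drd2 by 0.95, Pde10a by 0.78 and Ppp1r1b by 0.68. Of 7 neuronal genes 3 were higher, the enzymes of GABA synthesis Gad2 by 0.79 and Gad1 by 0.34 and the microtubule protein Map2 by 0.20, and Rbfox3, the neuronal nuclear antigen, was lower, at -0.22. Of 6 thalamic genes 5 were lower in the amygdala, Tcf7l2 at -1.45, Prkcd at -0.89, Plekhg1 at -0.82, Slc17a6 at -0.78 and Rora at -0.36. Of 6 genes of hippocampal subfields 4 were lower in the amygdala, Prox1 at -2.51, Tdo2 at -2.01, Dsp at -1.59 and Lefty1 at -0.63, and Wfs1 was higher, at 0.69. Glial genes that passed were lower in the amygdala. They were Gfap at -1.02, Aqp4 at -0.60 and Gja1 at -0.24 among 5 astrocyte genes and Mag at -0.48, Mog at -0.36, Cnp at -0.31 and Mbp at -0.29, which are all 4 measured oligodendrocyte genes. None of 6 choroid plexus and 5 microglia genes passed. The part of these cells in the differences of the members was not tested.

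The question of learning was whether levels moved after training. Each later time point was set against baseline over the 4 groups, in a fit with the group as a block, so that the groups served as replicates. A change here rests on a baseline array that all later times of the group share. Of the 28 series of a member in a group, 11 had their lowest value at baseline and 0 their highest, while 11 had their highest value at 1 hr and 9 at 0 hr. The share of all transcript clusters with such extremes was not counted. The 7 genes were read on the same arrays, so the 28 series are not independent of each other. Of 28 changes at each time, 23, 24, 14 and 20 lay above baseline at 0 hr, 1 hr, 48 hr and 1 wk. Over all transcript clusters the share of changes above baseline was 56.4%, 51.1%, 42.3% and 56.4% in the same order. Tissue markers moved with time as well. The mean level of the choroid plexus genes was 9.20, 9.19, 9.46 and 8.99 at baseline in amygdala DKO, amygdala WT, hippocampus DKO and hippocampus WT, and 7.50 to 9.34 on the later arrays, and the list's median change over all groups was -0.82, -0.62, -1.16 and -0.73 in the order of time, with none of its 6 genes past the test. The striatal genes were also highest at baseline in amygdala WT, at 9.33, against 8.56 to 9.22 later. The part of these tissues in the changes of the members was not tested. No member passed an adjusted p of 0.05 at any time, and the share of all transcript clusters that did was 0.00347%, 0.0243%, 0% and 0.00347% at 0 hr, 1 hr, 48 hr and 1 wk. Of the 28 tests on members 4 had an unadjusted p under 0.05, 1 at 0 hr, 2 at 1 hr and 1 at 1 wk. The share of all transcript clusters with such a p was 2.58%, 6.16%, 3.59% and 3.12%, again in the order of time.

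Arc had 3 of these 4. At 1 hr it was above baseline by 0.19 in amygdala DKO, 0.52 in amygdala WT, 0.43 in hippocampus DKO and 0.52 in hippocampus WT. All 4 groups were higher, as were those of 12.4% of all transcript clusters at 1 hr. On these arrays the mean of the choroid plexus genes was 9.17, 7.81, 7.68 and 9.25 in the same order of groups. The mean change of Arc was 0.42 (SE 0.085, unadjusted p = 9.81e-05, adjusted p = 0.149 in limma). It passed in 2 of 9 alternatives, with an adjusted p of 0.0443 after median centring and 0.0346 with array weights. In the other 7 it did not pass, the adjusted p in limma reaching 0.969. When each array was left out in turn it never passed, with an adjusted p of 0.126 to 0.770. At 0 hr Arc was above baseline by 0.28 (SE 0.085) and at 1 wk by 0.25 (SE 0.085), again in 4 of 4 groups, as were 8.02% of all transcript clusters at 0 hr and 6.16% at 1 wk. Both changes had an adjusted p of 1.00. At 48 hr the mean change of Arc was 0.08, with 3 of 4 groups above baseline.

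Homer1 had the fourth. At 1 hr its change was 0.29 in amygdala DKO, 0.19 in amygdala WT, 0.39 in hippocampus DKO and 0.52 in hippocampus WT, with a mean of 0.35 (SE 0.085, unadjusted p = 0.000629, adjusted p = 0.378 in limma). At 48 hr hippocampus WT was 0.34 above its baseline, and the other 3 groups lay below theirs. Pcsk1 and Vgf were above baseline in 4 of 4 groups at 1 hr as well, by 0.27 (SE 0.139) and 0.17 (SE 0.089) on average. Pcsk1 spread widely between groups, with changes at 1 hr of 0.30 in amygdala DKO, 0.43 in amygdala WT, 0.01 in hippocampus DKO and 0.34 in hippocampus WT. Nptx2 was above baseline in 4 of 4 groups at 0 hr, by 0.13 (SE 0.066), and the 95% interval of its change at 1 hr was -0.10 to 0.18. Inhba was higher in 3 of 4 groups at each time, with mean changes from 0.08 at 48 hr to 0.15 at 0 hr and 1 wk. Npas4 had mean changes of 0.20 at 0 hr and 0.15 at 1 hr, with SE of 0.112.

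**Figure D3:**
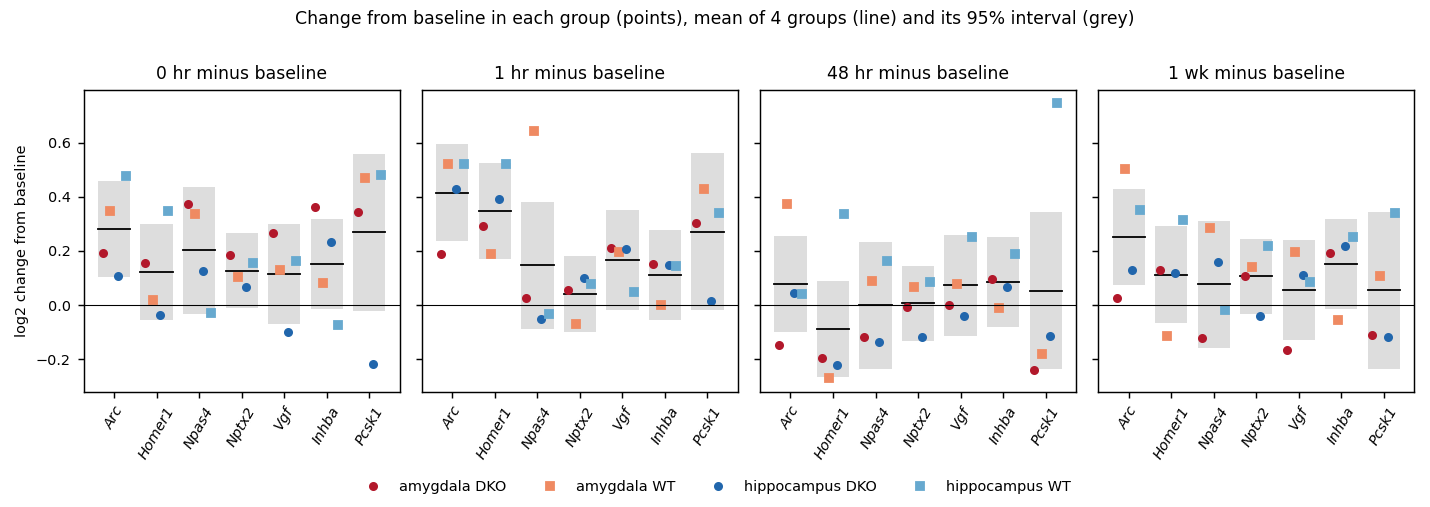
Log2 change from baseline at 0 hr, 1 hr, 48 hr and 1 wk for each of the 7 genes, with 1 point per group of region and genotype, black lines for the mean of the 4 groups and grey boxes for its 95% interval. At 1 hr all 4 points of Arc, Homer1, Vgf and Pcsk1 lie above 0, the means of Arc and Homer1 being 0.42 and 0.35, whereas at 48 hr the means of all 7 genes lie between -0.09 and 0.08.

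At 1 hr the transcription factors of the same response were read alongside. Of 20 such factors 1 passed, Egr2, which was higher by 1.08 (SE 0.130, adjusted p = 0.00118 in limma). Egr2 changed by 0.91 in amygdala DKO, 1.11 in amygdala WT, 1.22 in hippocampus DKO and 1.08 in hippocampus WT, so that each group showed it. The median change of the 20 factors was 0.19, that of the 7 members 0.17, that of 19 other effectors 0.14, and that of all transcript clusters 0.00. An unadjusted p under 0.05 was seen in 10 of 20 factors, in 5 of 19 other effectors and in 2 of 7 members, against 6.16% of all transcript clusters. The mean change was above 0 in 19 of the 20 factors. It was also above 0 in 7 of 7 neuronal, 5 of 5 astrocyte and 4 of 4 oligodendrocyte markers, so this direction was not particular to the factors. For striatal, thalamic and choroid plexus markers it was above 0 in 1 of 5, 1 of 6 and 0 of 6. Of the other effectors none passed the adjusted test.

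Within a region, with the genotypes as replicates, none of 56 tests on members passed, while 6 had an unadjusted p under 0.05. In the amygdala the share of all transcript clusters that passed was 0.00347% at 1 hr and 0% at the other times, and in the hippocampus it was 0% at each time. An unadjusted p under 0.05 was seen in 1.28%, 1.57%, 4.59% and 1.43% of all transcript clusters in the amygdala, in the order of time, and in 2.29%, 5.87%, 5.59% and 4.35% in the hippocampus. The amygdala changes of Pcsk1 were 0.41 at 0 hr (SE 0.121, unadjusted p = 0.00607) and 0.37 at 1 hr (SE 0.121), and that of Arc at 1 hr was 0.36 (SE 0.148). In the hippocampus Arc changed by 0.48 at 1 hr (SE 0.113, unadjusted p = 0.00117, adjusted p = 0.679 in limma) and by 0.29 at 0 hr, and Homer1 by 0.46 at 1 hr (SE 0.128, adjusted p = 0.682). The regions were then compared in their changes. No member passed, as 0% of all transcript clusters did at each time, and 1 of 28 tests had an unadjusted p under 0.05, against 1.16%, 1.01%, 6.8% and 2.16% of all transcript clusters in the order of time. That was Pcsk1 at 48 hr, where the amygdala change minus the hippocampus change was -0.53 (95% interval -0.98 to -0.07, adjusted p = 0.686 in limma).

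Single arrays were read at a change of 1.5-fold. Of 112 single-array changes of members 2 reached it, both upward and both in WT. Npas4 was 0.64 above baseline in amygdala WT at 1 hr, where 0.17% of all transcript clusters were higher by 1.5-fold, and was 0.03 above baseline in amygdala DKO. Pcsk1 was 0.75 above baseline in hippocampus WT at 48 hr, where 1.08% were higher by 1.5-fold, and changed by -0.12 in hippocampus DKO. These are 1 array against 1 array, without a test, and both were gone when the mean of both baseline arrays of the region was used in place of its own. The Pcsk1 change also rests on a baseline of 6.80, the lowest of the 20 arrays. Choroid plexus genes reached 1.5-fold on many arrays, downward, with 4 of 6 of them in hippocampus WT at 48 hr and 6 of 6 in amygdala WT at 1 hr, the arrays of both member changes.

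Among the other listed genes few reached 1.5-fold. Egr2 did so upward at 1 hr in all 4 groups and in hippocampus WT at 0 hr and 1 wk. Upward changes of other transcription factors were Nr4a2 in amygdala DKO at 1 hr, Fos in amygdala WT at 0 hr and 1 wk, Atf3 in amygdala WT at 48 hr and Junb in hippocampus WT at 0 hr. Among effectors they were Tiparp in amygdala DKO at 0 hr and 1 hr, Ptgs2 there at 1 hr and 1 wk, and Btg2 at 0 hr, Gadd45b at 1 hr and Mmp9 at 48 hr in amygdala WT, while Gadd45g was lower in amygdala DKO at 48 hr. Of the Homer partners Shank2 was higher in amygdala WT at 48 hr and 1 wk, and Homer2 was lower there at 1 wk and higher in hippocampus WT at 48 hr. Tissue markers other than those of the choroid plexus did so too. In amygdala WT these were Drd1 downward at 0 hr, Drd1, Pde10a and Rgs9 downward at 48 hr and 1 wk, and Dsp, Lefty1, Prox1 and Tdo2 upward at 48 hr. Elsewhere they were upward, Wfs1 in amygdala DKO at 1 wk and in hippocampus WT at 48 hr, Prkcd in hippocampus DKO at 48 hr, and Calb2, Slc17a6 and Tcf7l2 in hippocampus WT at 1 wk.

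The comparison of DKO with WT asked whether losing AC1 and AC8 changed the members. It took the 5 time points as replicates, with a limit of 0.1 on the adjusted p. In the amygdala 0 of 7 passed, against 0.097% of all transcript clusters, and 0 had an unadjusted p under 0.05, against 6.82%. In the hippocampus 0 of 7 passed, against 0.118%, and 2 had an unadjusted p under 0.05, against 11.4%. Widths of the 95% intervals set what could be seen. The lowest and highest bounds were -0.40 for Pcsk1 and 0.24 for Npas4 in the amygdala, while in the hippocampus they were -0.46 for Arc and 0.34 for Inhba.

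Among the postsynaptic members, Arc was lower in hippocampus DKO than in hippocampus WT at 5 of 5 times, as were 7.09% of all transcript clusters. Arc averaged 7.67 ± 0.17 in hippocampus DKO and 7.91 ± 0.24 in hippocampus WT (SD, n = 5 each), a difference of -0.23 (SE 0.108, adjusted p = 0.431 in limma). The ranges overlapped, and the gap was widest at 0 hr, 7.64 in DKO against 8.11 in WT. In the amygdala Arc was higher in DKO at baseline and 0 hr and lower at the 3 later times, with a mean difference of -0.05. Homer1 was lower in amygdala DKO at 5 of 5 times, as were 5.22% of all transcript clusters, the differences running from -0.25 to -0.01. For Npas4 the mean difference was -0.01 in the amygdala and -0.14 in the hippocampus (SE 0.068), where the largest gap was at 48 hr, 6.13 in DKO against 6.57 in WT.

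Among the secreted members, Inhba differed between the regions in its sign. In the amygdala it was lower in DKO than in WT at 5 of 5 times, the differences running from -0.32 to -0.04, and the mean was 7.53 ± 0.13 in DKO and 7.69 ± 0.05 in WT (SD, n = 5 each). In the hippocampus it was higher in DKO than in WT at 5 of 5 times, by 0.03 to 0.46, with means of 8.21 ± 0.10 in DKO and 8.02 ± 0.14 in WT. Such opposite signs at all 5 times in both regions were seen in 0.499% of all transcript clusters. The difference between the regions in the genotype effect was -0.35 (SE 0.103, 95% interval -0.56 to -0.14), which did not pass, with an adjusted p of 0.241 in limma, where 0 of 7 members and 0.0104% of all transcript clusters did. The median difference of DKO from WT was -0.39 for striatal markers in the amygdala and 0.46 for thalamic markers in the hippocampus. No gene of either list passed, and the ranges given above overlap. The mean level of striatal markers was lower in amygdala DKO before 1 wk, but 8.60 against 8.56 in WT at 1 wk. That of thalamic markers was higher in hippocampus DKO before 1 wk, but 8.17 against 8.19 in WT at 1 wk. The part of these markers in the Inhba result was not tested. Pcsk1 was lower in amygdala DKO at 5 of 5 times too, with a mean difference of -0.11. In the amygdala the mean differences of Vgf and Nptx2 were -0.10 and -0.08, and in the hippocampus they were 0.03 and -0.05.

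**Figure D4:**
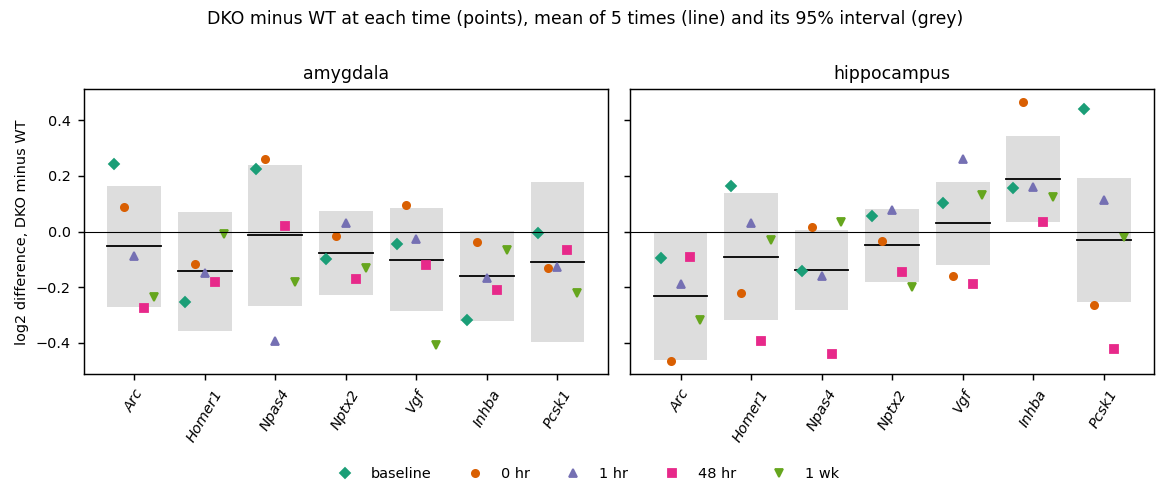
Log2 difference between DKO and WT, DKO minus WT, for each of the 7 genes in the amygdala and the hippocampus, with 1 point per time, black lines for the mean of the 5 times and grey boxes for its 95% interval. Inhba has all 5 points under 0 in the amygdala and all 5 above 0 in the hippocampus, and Arc has all 5 under 0 in the hippocampus.

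The last comparison asked whether the change after training differed between DKO and WT, with the regions as replicates. None of 28 tests on members passed, as 0% of all transcript clusters did at each time, and 1 had an unadjusted p under 0.05, against 5.1%, 1.92%, 13.1% and 17.9% of all transcript clusters in the order of time. This was Arc at 1 wk, where the change from baseline was 0.02 in amygdala DKO against 0.50 in amygdala WT and 0.13 in hippocampus DKO against 0.35 in hippocampus WT. The difference of these changes was -0.35 (SE 0.159, 95% interval -0.69 to -0.01, adjusted p = 0.268 in limma). At 48 hr all 7 members had a change that was lower in DKO than in WT, with a median of -0.24, but the median of all transcript clusters was also below 0, at -0.15. The 48 hr array was the lowest of amygdala DKO for Arc, Homer1, Nptx2 and Pcsk1 and the lowest of hippocampus DKO for Homer1, Npas4 and Nptx2, and these are the arrays with medians of 6.68 and 6.64.

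Lastly the members were compared with each other and with all genes by how they varied within groups, after the mean of each group of region and genotype was taken off. All arrays share this scale, so that a shift of a whole array enters every value here. The 21 pairs of members had correlations between 0.10 and 0.72 over 20 arrays, with a median of 0.37. Vgf and Pcsk1 were the closest pair, at 0.72, followed by Homer1 and Pcsk1 at 0.65, Npas4 and Pcsk1 at 0.64 and Arc and Homer1 at 0.63. Npas4 and Nptx2 were the least alike, at 0.10.

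Candidates were the 11742 transcript clusters with 1 symbol above the median level (11743 for Npas4), and the 3 genes most like each member were taken. Homer1 had the closest, with Spred1 at 0.94, Papola at 0.94 and Ap2b1 at 0.93. Nptx2 was followed by Zc3hav1l at 0.86, Paqr5 at 0.83 and Cars2 at 0.82, and Pcsk1 by Brinp3 at 0.86, Rhot1 at 0.83 and Ddhd1 at 0.83. Arc was nearest to Tob2 at 0.84, Zfp189 at 0.82 and Gmppa at 0.82. Vgf stood with Rab36 at 0.83, Abhd13 at 0.82 and Ubr7 at 0.79. Npas4 had Stx1a at 0.82, Trp53i11 at 0.71 and Slc38a10 at 0.70, and Inhba had Them4 at 0.80, Parn at 0.76 and Cbwd1 at 0.76. These are the highest of many correlations and are given as a description, and Npas4, whose level lies below that median, could not be among them.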

How the data were processed

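RNA of amygdala and hippocampus micropunches was hybridized to 20 arrays, 1 for each region, genotype and time point. Before the files were deposited, the authors used the Expression Console of Affymetrix (version not given in the sources used here) to normalize and summarize the probes with RMA, and the deposited values are on a log2 scale. The genome build of the array annotation is not given either, so positions are given for the RefSeq promoter windows alone. Of 28853 transcript clusters, 21789 carry 1 symbol, 1621 several and 5443 none. No filter was applied, and 0 pairs of arrays were identical. Fits were made with lmFit and eBayes of limma 3.58.1 under R 4.3.3. Adjusted p-values were taken over all transcript clusters by the Benjamini-Hochberg method, with limits of 0.1 for DKO against WT within a region and 0.05 otherwise, and were tested on simulated data. Time points, genotypes or regions served as replicates, since there was 1 array per condition. Whether both regions came from the same mice is not stated, and p-values measure the spread between these arrays. The number of arrays limits the precision. The 7 genes are described throughout. Of the listed partner, activity-induced and marker genes, those past a limit of a comparison or past 1.5-fold on single arrays are named, as are the 3 genes most like each member. Members and lists were chosen with earlier results of these data known. Alternatives were median centring, a filter at the median level, trend and robust fitting, a further quantile normalization, array weights, a replicate block, other fold limits and baselines, and each array left out in turn. The region comparison in DKO or WT arrays alone and without both 48 hr DKO arrays was added after seeing the data. Plots were drawn with Python 3.11.15 and matplotlib 3.10.9.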

Additional observations from a re-analysis of the deposited data

Results flagged for a closer look

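The effect of genotype on Inhba had opposite signs in the regions at all 5 times, and the difference between the regions was -0.35 (SE 0.103). The interaction test itself did not pass, with an adjusted p of 0.241 in limma and 0.101 to 0.443 when 1 array was left out or another setting was used.

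The Npas4 level of the 48 hr array in hippocampus WT, 6.57, was far from the other 4 of its group, the nearest of which was at 6.41. The gap made up 0.826 of the range of the group, above the critical value of 0.71 for 5 arrays. Of 28 groups of 5 arrays checked over the 7 genes this was the 1 such case, and chance gives about 1 in 20.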

How the results depend on the processing

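The number of members called was recomputed 536 times, over 25 comparisons, and stayed within 1.5 times in 531. In limma the main count was 0 in every comparison but that of the regions, and a count that stayed at 0 was taken as within this limit. Most of the 531 are therefore counts that stayed at 0, and they do not measure how firm a result is. At 1 hr over all groups it was 1 instead of 0 after median centring and with array weights, Arc both times. The count of members past 1.5-fold on single arrays, 2, became 23 with the lower of the fold limits tried and 0 with a limit of 2-fold, and also 0 when both baseline arrays of a region were averaged. Between the regions 4 to 6 members passed when 1 array was left out. Pcsk1, Homer1, Vgf and Inhba kept their direction and their call in all of these fits. Npas4 lost its call after further quantile normalization (adjusted p = 0.0641), after median centring (0.0706), in WT arrays alone (0.478), without both 48 hr DKO arrays (0.0712) and when any of 10 of the 20 arrays was left out, and it was not tested under the filter at the median level. Arc passed between the regions under that filter (0.0375), after median centring (0.0105) and when any of 5 of the 20 arrays was left out in turn. In the other 7 of 9 alternatives Arc did not pass, the adjusted p reaching 0.410. Nor did it pass without any of the other 15 arrays, where the adjusted p reached 0.114. The cause was not tested. All transcript clusters called between the regions numbered 4708, with 2201 to 7919 under other settings; at 1 hr over all groups they numbered 7, with 0 to 47; and for DKO against WT in the hippocampus 34, with 25 to 73.

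DKO and WT arrays were not paired by time point in the main comparison of the genotypes. Whether the arrays of a time point were handled together is not stated. Deviations from the group means correlated between DKO and WT arrays of a time point at -0.42 to 0.20 in the amygdala and -0.13 to 0.23 in the hippocampus. These correlations cannot decide whether such arrays form pairs. With time as a replicate block 0 members passed in each region.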
